A study of Mus musculus with 6 samples.

Results

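Long unspliced m6A peaks are stretches of 1000 bases or more that were enriched by the m6A antibody and lie in 1 uninterrupted block of the genome. They were taken from the authors' 2 deposited tables, one comparing the ClpP knockout with wild type (the ClpP table) and one comparing the ClpX knockout with wild type (the ClpX table). Members were chosen by their measured block count (1) and block length (at least 1000 bases), whatever their change. These criteria gave 902 of 24127 peaks on 826 genes in the ClpP table and 897 of 23681 peaks on 838 genes in the ClpX table. Lengths, enrichment and change come from the same tables of the same comparisons, so all values below are a description, with no test. Just inside the length limit of the ClpP table were Fahd1 (1002 bases, log2 fold change -0.52), Arf6 (1004 bases, -0.89), 1700010B13Rik (1007 bases, -0.41) and AL732309.1 (1008 bases, -0.82). Just outside, at 991 bases each, were Bcl2l13 (-0.38), Dmxl1 (0.16), Kctd12 (-0.64) and Kdm3b (0.02). In the ClpX table Fahd1 (1002 bases, -0.80), Pudp (1002 bases, 0.43), Gm19569 (1007 bases, -0.64) and Pih1d3 (1007 bases, -2.22) were inside, and Bcl2l13 (-0.54), Camsap1 (0.79), Rbbp5 (0.72) and Rbm19 (-1.31) lay outside at 991 bases.

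The samples were male germ cells described as spermatocytes, taken from mice at postnatal day 35. The 6 libraries were 1 immunoprecipitated (IP) and 1 input library for each of 3 genotypes: WT, ClpP cKO and ClpX cKO. The conditional knockouts (cKO) were made with Stra8-Cre, which is active in germ cells from the spermatogonial stage on. ClpP is the peptidase and ClpX the unfoldase of a protease of the mitochondrial matrix, and the study asked about mitochondrial function in these cells. No group was repeated, so no difference has a replicate check and no value has a replicate error. The labels do not say whether the WT mice carried the Cre or floxed alleles, or how many animals gave each library. Neither Clpp nor Clpx carried a long peak in either table (0 long peaks each), so these peaks hold no check of the knockouts. The tables hold no expression levels, and cell types could be looked at only through which genes carried any peak. Of 68 meiosis and genome integrity genes, 55 (ClpP table) and 50 (ClpX table) carried one, and of 54 spermatid and sperm structure genes 47 did in each table, against 29 and 31 of 49 somatic testis markers and 12 and 13 of 21 genes on the spermatogonia list. The part of other cells in the values below was not tested.

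N6-methyladenosine (m6A) is a methyl mark that the METTL3 and METTL14 complex lays on adenosines, mostly within a short motif built around GGAC or a close form of it. In mRNA the mark is known to gather in long internal exons, around stop codons and in the last exon. Sequence close to splice junctions carries less of it, because the exon junction complex keeps the methyltransferase away from nearby adenosines. A stretch of 1000 bases without a splice junction needs a long internal exon, a long last exon or a gene with no intron. The testis expresses many intronless genes, among them many retrogenes, which are copies of mRNAs put back into the genome without introns.

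No genome sequence was used here, so the peaks' own bases can be shown only where a RefSeq window around an annotated transcript start (300 bases, GRCm38.p6) or a RefSeq miRNA lies wholly inside a long peak. That held for 5 windows in each table. The motif GGAC followed by any base other than G was searched for in them on the RNA strand and on the opposite strand. It was found on the RNA strand in 2 of 5 windows of the ClpP table and in 4 of 5 of the ClpX table, against 60.2% of all 32851 RefSeq windows, and in 1 of 5 and 3 of 5 on the opposite strand, against 60.4%. With so few windows this is only an illustration of the letters under such peaks. The 30 bases around each motif follow, 5′ to 3′ on the RNA strand with the motif in capitals. They show the letters under a long peak on both sides of a transcript start. The motifs of Chml (first site), Txndc11, Rsbn1l and 1700055D18Rik (first site) lie 141, 218, 33 and 174 bases before the annotated start. Those letters are thus outside an RNA that begins at that start. Whether another annotated transcript of the gene covers them was not looked at. Only the second sites of Chml and 1700055D18Rik lie past the start. The first pair lies at Chml, a Rab escort protein gene whose long peak covers both sites in both tables (chr1:175688477-175688506 and chr1:175688304-175688333, minus strand).
Chml, first site: gttaaaagcttaGGACTtaaaaactcagtg
Chml, second site: agagtttgatgtggtaataatagGGACAgg
Txndc11, chr16:11088131-11088160, minus strand, both tables: ctgcatgttgcaGGACCatatcccggggca
Rsbn1l, chr5:20951838-20951867, minus strand, ClpX table: ggagctcggcctGGACCtaggcaccccgcc
1700055D18Rik, chr4:45012624-45012653, plus strand, ClpX table: tctttgaaggcgGGACTtatcacttagcaa
1700055D18Rik, chr4:45012806-45012835, plus strand, ClpX table: ctggagtctgaaGGACAggtgacttcctct

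None of the 4 genes shown was called changed (an authors' adjusted p under 0.05, explained with the counts below). For Chml the authors' tables give a fold enrichment of 19.9 and a log2 fold change of 0.41 in ClpP cKO, and 56.4 and 0.06 in ClpX cKO. For Txndc11, a thioredoxin-domain protein gene, they give 32.9 and -0.25 in ClpP cKO, and 42.7 and 0.59 in ClpX cKO.

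Long peaks also lay over miRNA sequences. The long peak of Chpf2 in the ClpP table (chr5:24591211-24592496, plus strand) holds both arms of miR-671, and that of P2rx7 (chr5:122681208-122682737, plus strand) holds miR-8115. Their mature sequences are printed with the seed, bases 2 to 8, in capitals to show which miRNAs these are; the 3 seeds differ.
miR-671-5p: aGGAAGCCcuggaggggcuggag
miR-671-3p: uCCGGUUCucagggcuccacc
miR-8115: cCGCAAUAgcaacaagggcucu

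The miR-671 stretch also shows a limit of the tables. A long peak on Smarcd3 (chr5:24591207-24592524), listed on the minus strand, covers nearly the same bases as the Chpf2 peak. In the authors' ClpP table the log2 fold change was -0.45 for Chpf2 and -0.43 for Smarcd3, and neither was called. In the ClpX table the Chpf2 peak was 808 bases long and called higher (0.98), as was the long peak of Smarcd3 (0.90). The sources used here do not state whether strand was kept in the libraries, so reads of such facing genes cannot be told apart. Members that share bases only with a peak on the opposite strand numbered 58 (ClpP table) and 68 (ClpX table). A further 79 and 72 shared bases with another listed peak on their own strand, and any of these that also face an opposite-strand peak were not counted apart. Among the genes named below, Hspa1l, Atxn7l3b, D1Pas1, Rnf139, Rnf146, Btbd7, Wdr59, R3hcc1l, Chmp1b and mt-Nd5 face a peak on the opposite strand.

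Long peaks were more strongly enriched than the tables as a whole. The median fold enrichment of IP over input, which the tables give once per peak without stating which libraries it uses, was 19.6 in the ClpP table and 20 in the ClpX table, against 8.23 and 8.9 over all peaks. The interquartile range was 12.2 to 31.8 in the ClpP table and 12.8 to 30.8 in the ClpX table. Median length was 1316 and 1291 bases. The most enriched members were Yy2, a retroposed relative of the transcription factor Yy1 (168), Zfp292 (141), Ercc6l2 (137) and Tmtc3 (127) in the authors' ClpP table, none of them called changed. In their ClpX table they were Ccdc160 (204), Chmp1b, a membrane-remodelling ESCRT gene (188), Ssh1, a cofilin phosphatase (173), and Secisbp2l (146); Chmp1b (-1.14) and Ssh1 (-1.11) were called lower. The least enriched in the ClpP table were Foxm1, a cell-cycle transcription factor (2.59), Arc (3.18), Akap3 (3.88) and Chpf (3.9), all called lower. In the ClpX table mt-Nd5, a mitochondrially encoded complex I subunit (2.08), Pou6f1 (3.84), Arc (4.24) and Map4 (4.35) were the least enriched, and all were called higher.

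The longest members reached several kilobases. In the authors' ClpP table they were Crybg3 (5067 bases), Rlf (4941), Prr14l (4407), Nrip1 (3989), Map1b (3924), Macf1 (3601), Ranbp6 (3588) and BC005561 (3526). In the ClpX table they were Prr14l (4407), Tex15 (3987), Crybg3 (3928), Nrip1 (3839), 4932431P20Rik (3836), Zfp748 (3685), Ranbp6 (3528) and Srrm2 (3473). Nrip1, a nuclear receptor corepressor, has its whole coding sequence in a single exon. Of these, Map1b was called higher (0.52) and Ranbp6 lower (-0.30) in the ClpP table, and Srrm2 was called higher (0.45) and Prr14l (-0.45), Crybg3 (-0.31) and Ranbp6 (-0.55) lower in the ClpX table, so the longest peaks had no common direction.

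Position was read against RefSeq gene spans matched by symbol, which placed 863 members of the ClpP table and 861 of the ClpX table. Most lay inside the span, away from both ends: 609 and 599. A further 133 and 126 ended within 500 bases of the gene's end, and 26 and 38 began within 500 bases of its start. The remaining 95 and 98 covered at least 50% of the whole span, which was so for 11% and 11.4% of the placed long peaks and for 0.898% and 0.793% of the placed shorter single-block peaks. A longer peak covers more of any gene, so this contrast is partly set by the rule. Ends within 100 bases of the gene's end made up 11.5% and 10.8% of placed long peaks, and 11% and 9.12% of placed shorter single-block peaks. By RefSeq type, 94.7% and 95.7% of placed members lay on protein-coding genes, 25 and 25 on lncRNAs and 20 and 11 on pseudogenes. On the X chromosome lay 32 and 27 members.

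In ClpP cKO, long peaks were called lower far more often than higher. A peak counts as called where the authors' adjusted p of the difference was under 0.05, and a negative log2 fold change is read as lower enrichment in the knockout, from the order in which each table names the genotypes. The authors' ClpP table had 288 of 902 members called lower, or 31.9% (exact 95% binomial interval 28.9% to 35.1%, counting error only), where 12.8% of all peaks were. Called higher were 56, or 6.21% (4.72% to 7.99%), where 6.74% of all peaks were. The median log2 fold change of the members was -0.25, against -0.03 over all peaks and -0.01 over shorter single-block peaks. Differences were modest: the median absolute log2 fold change was 0.44 in long peaks and 0.64 over all peaks, and 22 members called higher and 51 called lower passed an absolute value of 1.

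In ClpX cKO, both directions were called more often than over the table. The authors' ClpX table called 180 of 897 members higher, or 20.1% (17.5% to 22.8%), where 15.1% of all peaks were, and 150 lower, or 16.7% (14.3% to 19.3%), where 5% of all peaks were. The median log2 fold change of the members was -0.01, against 0.24 over all peaks and 0.29 over shorter single-block peaks. A change in the cells and a scaling of the libraries cannot be told apart in that overall shift, so the table's median is given here once as the level against which ClpX values stand. Among called members, 44 higher and 77 lower passed an absolute value of 1, so the order of the directions turned there. With the table's median subtracted, the members' median was -0.25, and 19.7% of members were called with a positive and 17.1% with a negative sign.

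**Figure D1:**
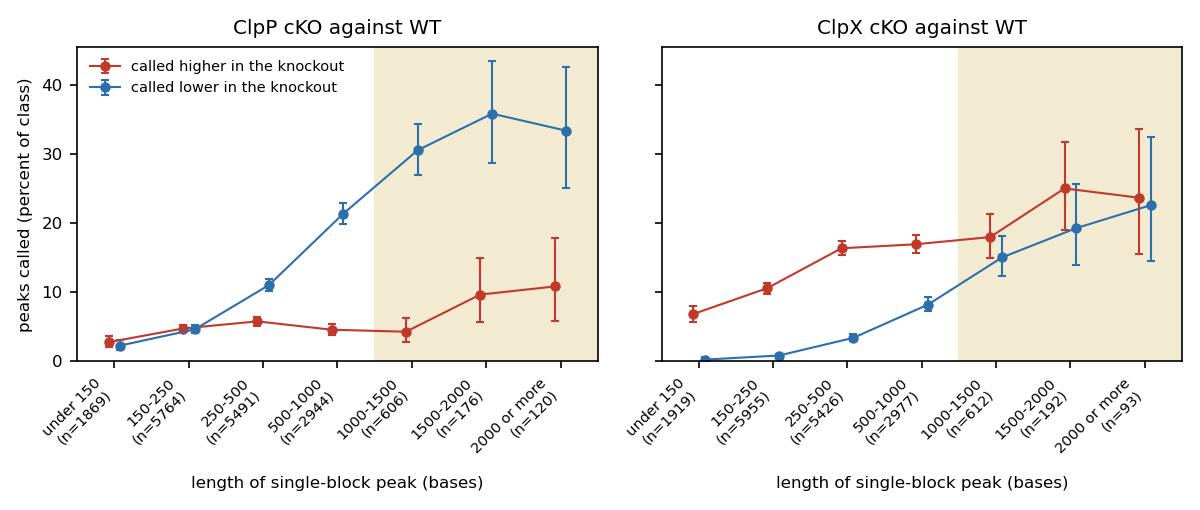
Share of single-block peaks called higher (red) or lower (blue) in each knockout, in percent, against peak length in bases, with exact 95% binomial intervals; the shaded classes are the long peaks. The share called lower climbs over the length classes in ClpP cKO from 2.30% under 150 bases to 35.8% at 1500 to 2000 bases, and in ClpX cKO from 0.261% to 22.6% at 2000 bases or more.

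The share called lower was larger in longer peaks well below the length limit too, as the plot of calls by peak length shows. In the authors' ClpP table the share called lower was 11.1% at 250 to 500 bases, 21.4% at 500 to 1000 and 30.5% at 1000 to 1500, and the share called higher was 5.79%, 4.59% and 4.29%. The ClpX table gave 3.41%, 8.2% and 15% lower and 16.3%, 16.9% and 18% higher in the same classes. A longer peak holds more reads at a given coverage, which makes a small difference easier to call; read counts were not used here, and the part of read number in these shares was not tested. Calls were also set side by side within classes of fold enrichment (under 5, 5 to 10, 10 to 20, 20 to 40, and 40 or more). The ClpP table had 71.4%, 53.5%, 35.6%, 24.4% and 15.7% of long peaks called lower, against 12.5%, 10.8%, 6.51%, 6.41% and 6.86% of shorter single-block peaks. In the ClpX table the shares called lower were 0%, 4.92%, 12.3%, 22.1% and 26.6% for long peaks and 1.38%, 3.08%, 3%, 6.14% and 8.42% for shorter ones, so the long peaks had the smaller share in the lowest class, which held 8 of them.

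**Figure D2:**
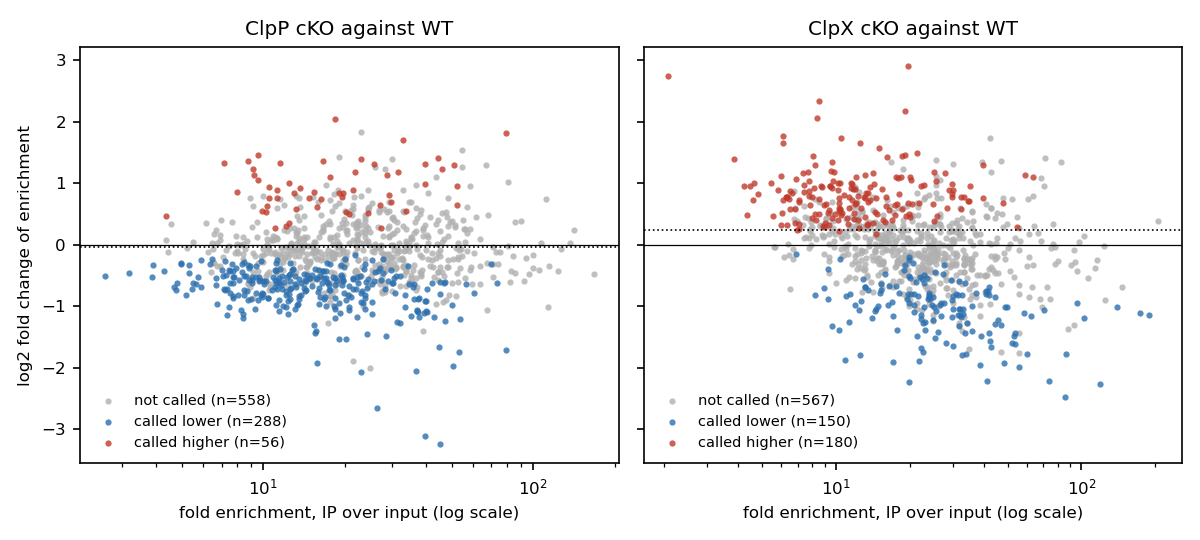
Each point is 1 long peak, with its fold enrichment of IP over input on a log scale and its log2 fold change of enrichment in the knockout; blue points were called lower, red higher and grey not called, and the dotted line is the median of all peaks of the table. In the ClpX panel the red points sit at low enrichment and the blue ones further right.

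Enrichment and direction went together in ClpX cKO, as the plot of enrichment against difference shows. Of the 8 members with a fold enrichment under 5, all 8 were called higher in the authors' ClpX table, and of the 122 between 5 and 10, 63 were called higher and 6 lower. Of the 128 at 40 or more, 4 were called higher and 34 lower. The median log2 fold change fell from 0.43 between 5 and 10 to -0.37 at 40 or more. Shorter single-block peaks showed the same order, from 0.32 to -0.50. In ClpP cKO the share called lower was largest at low enrichment, with 69 of 129 members between 5 and 10 and 22 of 140 at 40 or more, and the share called higher was between 4.29% and 7.5% in all 5 classes. Which libraries the fold enrichment rests on is not stated, so it cannot be taken as independent of the difference.

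Testis retrogenes and intronless germ cell genes held several of the strongest calls. All 13 long peaks on this list of 39 genes were called lower in the authors' ClpP table. Their log2 fold changes ran from -1.02 to -0.38, with a median of -0.71. Called lower were 31.9% of long peaks and 12.8% of all peaks of the table. Fhl4, a testis LIM-domain gene, had the smallest adjusted p of all 902 members (log10 of -434; log2 fold change -0.75). Next to it stood Csl, a testis copy of citrate synthase (-0.92), and Gykl1 and Gk2, glycerol kinases of the testis (-0.71 and -0.63). Prps1l1, the testis phosphoribosyl pyrophosphate synthetase, had -0.69, Tssk1, a testis-specific serine kinase, -0.78, and Actl9, an actin-like protein of the sperm head, -0.69 in that table. Pdha2, the testis subunit of pyruvate dehydrogenase, and Kif2b, a microtubule-depolymerising kinesin, had -0.53 and -0.41, and Cstf2t, a germ cell cleavage stimulation factor subunit, had the lowest value (-1.02). Shorter peaks on the list were called lower 31 times and higher 4 times of 55.

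Long peaks of this list were called in both directions in ClpX cKO. Its 18 genes with a member in the authors' ClpX table held 19 long peaks, of which 5 were called higher and 4 lower, where 15.1% and 5% of all peaks were. Shorter peaks on the list were called higher 15 times and lower 2 times of 44, with a median of 0.41. The long peaks' median was 0.11 on the log2 scale, against 0.24 over all peaks of that table. Called lower were Gk2 (-0.56), Fhl4 (-0.48), Csl (-0.39) and Gykl1 (-0.15). Called higher were Tssk1 (0.76), its relative Tssk2 (0.73), Actl7a (0.58), Actl9 (0.46) and 1 of the long peaks of Pabpc6, a testis poly(A)-binding protein gene (0.32). Tssk1 and Actl9 were thus called lower in ClpP cKO and higher in ClpX cKO over the same bases (Tssk1 1194 bases and Actl9 1373 bases in both tables). None of the list's calls changed sign when the table's median was subtracted (0 in either table).

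**Figure D3:**
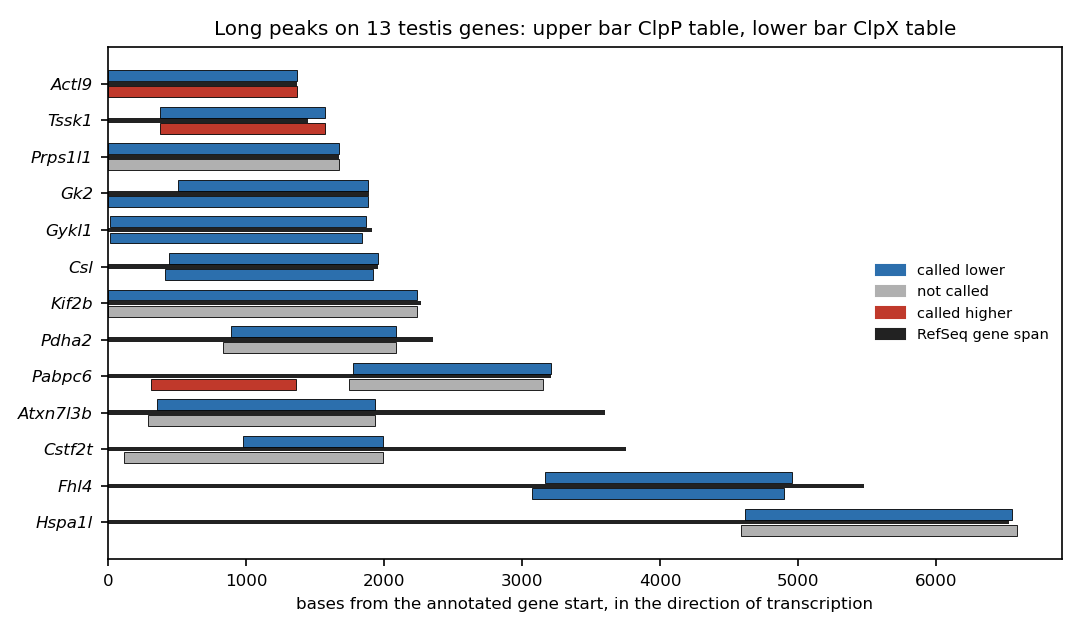
Long peaks of the 13 listed testis genes that had one in both tables, drawn along the RefSeq gene span (thin black bar) in bases from the annotated gene start; for each gene the upper bar is the ClpP table and the lower bar the ClpX table, blue for called lower, red for called higher and grey for not called. The peaks of Actl9, Prps1l1, Gykl1 and Kif2b run over nearly the whole gene, and all 13 ClpP bars are blue.

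On some of these genes a long peak took in nearly the whole gene, as the drawing along gene spans shows. The ClpP peak covered 100% of the RefSeq span of Actl9 (1370 bases) and of Prps1l1 (1676 bases), 98.7% of Kif2b and 97.2% of Gykl1. Over all placed members with at least 50% of the span covered, 47 of 95 were called lower and 4 higher in the ClpP table, and 20 of 98 lower and 18 higher in the ClpX table. All long peaks were called lower in 31.9% and 16.7% and higher in 6.21% and 20.1%. All peaks of the tables were called lower in 12.8% and 5% and higher in 6.74% and 15.1%. Of shorter single-block peaks covering as much of the span, 36 of 130 were called lower and 8 higher in the ClpP table, and 17 of 117 lower and 29 higher in the ClpX table. Genes outside the list were among the long ones. D1Pas1, a testis DEAD-box helicase (-0.87), Haspin, the kinase that phosphorylates histone H3 at mitotic centromeres (-0.63), and Ddi1, a retroviral-protease-like gene (-0.74), were called lower in the authors' ClpP table, with -0.21, -0.24 and -0.50 in the ClpX table, also called lower.

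**Figure D4:**
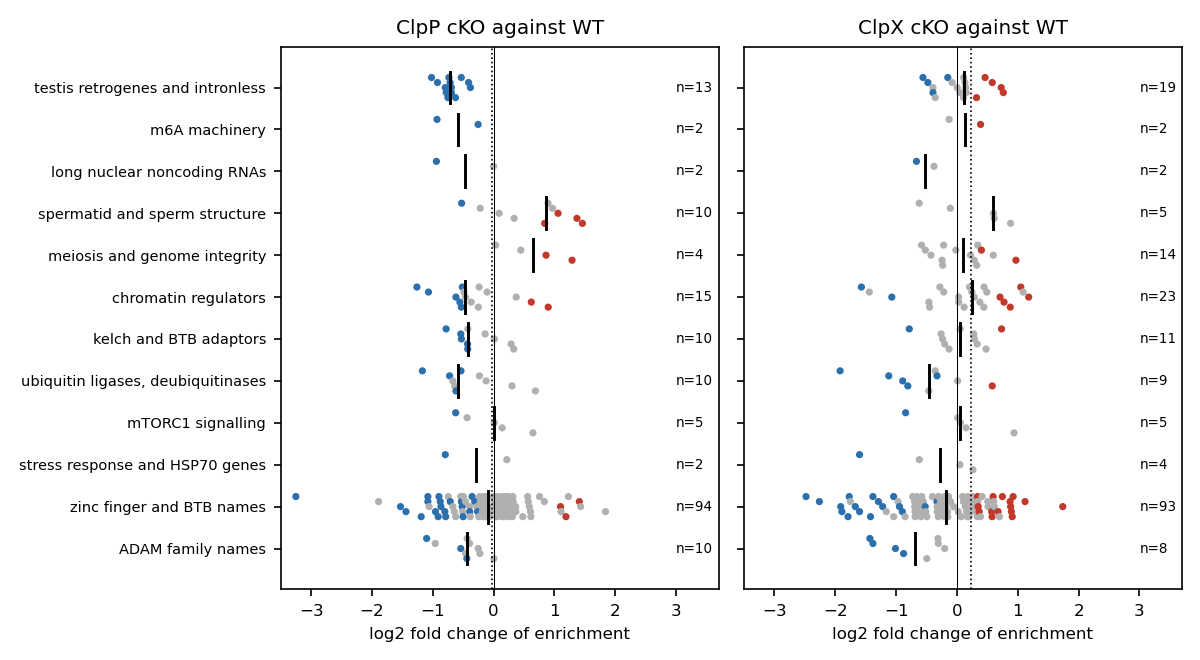
Log2 fold change of every long peak on the genes of each list, 1 point per peak, in both comparisons; blue points were called lower, red higher and grey not called, black bars are list medians, and the dotted line is the median of all peaks of the table. The testis retrogenes lie wholly below 0 in ClpP cKO and on both sides of it in ClpX cKO, while the spermatid and meiosis lists have medians above 0 in ClpP cKO.

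Long peaks called higher in ClpP cKO lay on a pair of spermatid genes, Fsip2 and Spata31d1a. Of 10 long peaks on 8 spermatid and sperm structure genes, the authors' ClpP table called 4 higher and 1 lower. Of all long peaks 6.21% were called higher and 31.9% lower, and of all peaks 6.74% and 12.8%. The median of the 10 was 0.87 on the log2 scale. The 105 shorter peaks on the list were called higher 27 times and lower 17 times, with a median of 0.24. Fsip2, a giant protein of the sperm tail's fibrous sheath, had 3 long peaks called higher, at 1.46, 1.37 and 0.84; their ClpX partners, of 601, 661 and 661 bases, had 1.32 (called higher), 0.39 (not called) and -1.24 (called lower). Spata31d1a, a spermiogenesis gene, had 1.06. Akap3, another fibrous sheath gene, was the one called lower (-0.53). The ClpX table held 5 long peaks on this list, none of them called (0 higher and 0 lower by the authors' test). Of all its peaks, 15.1% were called higher and 5% lower. The peak of Spata31d1a had 0.88 there.

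Of 4 long peaks on meiosis and genome integrity genes in the authors' ClpP table, with a list median of 0.66, 2 were called higher and 0 lower. Of all long peaks 6.21% were called higher and 31.9% lower, and of all peaks 6.74% and 12.8%. Of 144 shorter peaks on the list, 25 were called higher and 17 lower. The 2 were on Topaz1, a germ cell gene needed for male meiosis (1.29; -1.22, not called, over 869 bases in the ClpX table), and Knl1, a kinetochore scaffold (0.86). Meioc, which acts with the m6A reader YTHDC2 in meiotic entry, had 0.03. The ClpX table held 14 long peaks on 8 of these genes and called 2 of them higher, on Meioc (0.40) and on 1 of 3 peaks of Mki67, a proliferation marker that coats mitotic chromosomes (0.97).

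The uncharacterised gene 4932415D10Rik had the most long peaks of any gene, 5 in the ClpP table. All were called higher, with log2 fold changes of 0.76, 0.76, 1.19, 1.33 and 0.55, and the first pair covers nearly the same bases. Its 1 long peak in the ClpX table had -0.29 and was not called. At least 2 long peaks lay on 64 genes of the ClpP table and 53 of the ClpX table, and on 41 and 31 of these all had 1 sign. Signs differed on Kmt2d: this histone H3 lysine 4 methyltransferase gene had 1 long peak called higher (0.90) and 1 called lower (-1.07) in the authors' ClpP table, at fold enrichments of 11.2 and 8.24. Peaks of 1 gene share its RNA and are not independent.

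The remaining top members called higher in ClpP cKO were Ccdc110 (0.84), Sycp1-ps1, a pseudogene named for the synaptonemal complex gene Sycp1 (1.33), Lrrc37a (1.23), Mbd5, a methyl-CpG-binding domain gene (1.39), Larp4b, an RNA-binding protein of the cytoplasm (1.13), and Ms4a14 (0.94), all from the authors' ClpP table. The ClpX table gave a long peak only for Lrrc37a among these, called higher (2.18). Ccdc110 and Mbd5 were cut there to shorter peaks of 687 and 930 bases with values of -0.85 and 0.07, not called. The remaining top members called lower were Slc2a5, the fructose transporter that sperm use (-0.97), Rnf139, an E3 ubiquitin ligase of the endoplasmic reticulum (-0.72), Atxn7l3b (-0.73) and Prdx6b, a peroxiredoxin retrogene (-0.78).

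In the authors' ClpX table the members called higher with the smallest adjusted p were led by mt-Nd5 (log2 fold change 2.74) and mt-Nd2 (1.77), complex I subunits of the mitochondrial genome and the 2 mitochondrially encoded long peaks of that table. The ClpP table had 0 such members; its mt-Nd2 peak was 534 bases long and called higher (0.62). Mitochondrial genes are transcribed as long polycistronic RNAs from both strands. Next came Hist1h1c, a linker histone gene without introns (0.996), Son, a large protein of nuclear speckles (1.01), Ccdc92 (0.78), Arc, a gene of retrotransposon origin that forms capsid-like shells (0.96), and the zinc finger genes Zfp646 (0.87) and Zfp768 (1.74). Called lower, beside Fhl4, Gk2, Csl and Rnf139 (-0.33), were Malat1 (-0.67), Slc5a3, the sodium-coupled inositol transporter (-1.49), R3hcc1l (-1.52) and Stard9, a giant kinesin (-2.21). The matching ClpP values of the last 3 were -0.78, -0.55 and -1.07, all called lower.

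Among 26 genes of the m6A machinery, Rbm15 and Rbm15b had long peaks. Both encode adaptors that bring the methyltransferase to RNA. In ClpP cKO the authors' table called both lower, Rbm15b at -0.93 and Rbm15 at -0.25, where 31.9% of long peaks and 12.8% of all peaks were. Of 56 shorter peaks on these genes, 12 were called lower and 3 higher. In ClpX cKO Rbm15 was called higher (0.39), where 20.1% of long peaks and 15.1% of all peaks were, and Rbm15b was not called (-0.13). Of 50 shorter peaks there, 8 were called higher and 8 lower. Of long nuclear noncoding RNAs, Malat1 was called lower in both comparisons (-0.94 in ClpP cKO and -0.67 in ClpX cKO, authors' tables). Called lower were 31.9% and 16.7% of long peaks and 12.8% and 5% of all peaks. Tug1 was called in neither, with -0.000711 in ClpP cKO and -0.38 in ClpX cKO.

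For the lists that follow, the shares to read the counts against are 6.21% of long peaks called higher and 31.9% lower in the ClpP table (6.74% and 12.8% of all peaks), and 20.1% higher and 16.7% lower in the ClpX table (15.1% and 5% of all peaks). The counts are small, and no list is called particular from them. Chromatin regulators gave 15 long peaks in the ClpP table, 2 called higher and 6 lower, and 23 in the ClpX table, 5 higher and 2 lower. Hcfc1, a chromatin scaffold on the X chromosome, had -0.62 in the authors' ClpP table and 0.88 in their ClpX table, and was called in both. Kdm4d, an intronless histone demethylase of the testis, and Arid2, a subunit of a SWI/SNF remodeller, were called lower in ClpP cKO (-0.55 and -0.51). Brwd1, a bromodomain gene needed in male germ cells, was called lower (-1.57), and the methyltransferase Kmt2c (1.18) and the acetyltransferase Crebbp (0.78) were called higher, in ClpX cKO.

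Kelch and BTB adaptors of cullin ligases gave 10 long peaks in the ClpP table, 0 called higher and 5 lower, among them Klhl9 (-0.78), Klhl25 (-0.53) and Kbtbd6 (-0.43 and -0.43, a pair of entries over the same bases and so 1 region counted as 2). The ClpX table held 11, with Btbd7 called higher (0.73) and Kbtbd7 lower (-0.78; -0.54, also called lower, in the ClpP table). Ubiquitin ligases and deubiquitinases gave 10 long peaks, 0 higher and 4 lower, in the ClpP table (Rnf139, Rnf146 at -1.17, Otud4 at -0.62 and Pja1 at -0.54), and 9, 1 higher and 5 lower, in the ClpX table, where Rnf213 had -1.92 and Rlim -1.12. Ube3a, the ligase of Angelman syndrome, was also called lower in the ClpX table (-0.89).

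For mTORC1 signalling, which the title of the series names, 5 long peaks were found in each table and 1 was called lower in each, against 31.9% and 16.7% of long peaks and 12.8% and 5% of all peaks. Rragc, a Rag GTPase that brings mTORC1 to the lysosome, had -0.62 in the authors' ClpP table and 0.06 in the ClpX table, with the same 1015 bases in both. Wdr59, of the GATOR2 complex that signals amino acids to mTORC1, had -0.44 (not called) in ClpP cKO and -0.84 (called lower) in ClpX cKO. Rraga, another Rag GTPase (0.01 and 0.15), was not called, nor were the 2 long peaks that Fnip2, a folliculin partner, had in each table (0.65 and 0.14 in ClpP cKO, 0.94 and 0.01 in ClpX cKO). Nuclear-encoded mitochondrial genes had 2 long peaks in the ClpP table, with Pdha2 called lower and Twnk, the mitochondrial DNA helicase, at -0.20, and 1 in the ClpX table (Pdha2, 0.14, not called). On stress response and HSP70 genes, Hspa1l was called lower in ClpP cKO (-0.79) and Hspa12a in ClpX cKO (-1.60), of 2 and 4 long peaks; Ppp1r15a, a stress-induced phosphatase subunit, had 0.22 and 0.26 and was not called.

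Zinc finger and BTB transcription factor names, found by pattern, made up the largest group. They gave 94 long peaks in the authors' ClpP table, 3 called higher and 21 lower, and 93 in their ClpX table, 15 higher and 17 lower, and the medians were -0.10 and -0.18 on the log2 scale. The shares over all long peaks were 6.21% and 31.9%, and 20.1% and 16.7%. Zbtb9 (-1.44), Zbtb18 (-0.91) and 2 peaks of Zfp41 (-0.88 and -0.90) were called lower in ClpP cKO. In ClpX cKO Zfp768 and Zfp263 (1.12) were called higher and Zfp518a (-1.91) lower. ADAM family names, a list added after the values were seen, gave 10 long peaks with 0 higher and 3 lower in the ClpP table and 8 with 0 higher and 4 lower in the ClpX table, where 31.9% and 16.7% of all long peaks were called lower, and overlapping entries count separately. Adam20 was called lower in both (-1.10 and -1.43), and Adam24 in the ClpX table (-1.38; -0.32 over 2 blocks, not called, in the ClpP table). Adam30 was listed as a pair of overlapping long peaks, at -0.44 (called lower) and -0.23 in ClpP cKO and at -1.01 and -0.88 (both called lower) in ClpX cKO. The family encodes disintegrin and metalloproteinase proteins, several of them on the sperm surface. In the authors' ClpX table the somatic testis markers had 1 long peak, on Cdh5, a cadherin of endothelial cells (0.32), and Kitl had another (-0.72); neither was called. Kitl stood on the spermatogonia list although somatic cells make this ligand of the Kit receptor, and no other gene of that list had a long peak in either table.

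The tables share the WT libraries, so values of the comparisons are set side by side. Calls in the same direction are therefore not read as agreement. Peaks of the tables were matched where they shared at least 1 base on the same strand. A partner was found for 893 members of the ClpP table and 871 of the ClpX table. In 607 pairs, 67.3% of the ClpP members and 67.7% of the ClpX members, both peaks were long. The partner of 225 other ClpP members was a single block under 1000 bases and that of 61 had 2 or more blocks; for ClpX members these were 157 and 107. In 346 of the 607 pairs the lengths differed by at most 60 bases.

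In 60 of the 607 pairs (9.9%) the peak was called lower in ClpP cKO and higher in ClpX cKO. In 1 pair (0.16%) the reverse was called, on the uncharacterised gene 4930444F02Rik (0.58 and -1.39). Both peaks were called lower in 56 pairs (9.2%) and both higher in 7 (1.2%). Overlapping entries, as on AY702103, count separately. Among the 18278 matched pairs that were not long in both tables, 700 (3.83%) were called lower in ClpP cKO and higher in ClpX cKO. The reverse was called in 7 (0.0383%) of them, both lower in 452 (2.47%) and both higher in 413 (2.26%). The one-sided order of opposite calls was thus not particular to long peaks, while its share was larger in pairs long in both tables. Values in the 60 pairs ran from -1.05 to -0.23 in the authors' ClpP table and from 0.18 to 1.01 in their ClpX table. Read against the ClpX table's own median, 3 of the 60 values, on Cand1, Dyrk3 and Urb2, were no longer above it. Their median fold enrichment was 8.61 in the ClpP table and 10.7 in the ClpX table, where the members' medians were 19.6 and 20, and 48 of them stood under 15 in both.

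Germ cell genes were found in this group. Tdrd6, a Tudor protein of the chromatoid body, had 2 long peaks at -0.72 and -0.53 in the authors' ClpP table and 0.35 and 0.34 in their ClpX table. Rimbp3, a protein of the spermatid manchette, had -0.62 and -0.53 against 0.35 and 0.73. Papolb, the testis poly(A) polymerase, had -0.23 against 0.26, and Prdx6b -0.78 against 0.28. The widest gaps among the 60 were those of Pwwp2b, a chromatin reader (-1.05 and 0.66), Zfp707 (-0.80 and 0.90), Cdc42ep4, a Cdc42 effector (-0.81 and 0.85), and Xkr8, a phospholipid scramblase needed for clearing apoptotic cells (-0.82 and 0.79). Nuclear speckle proteins were there as well, Son at -0.44 and 0.43 and Srrm2 at -0.25 and 0.45. Foxm1, Arc and Chpf, the least enriched members of the ClpP table beside Akap3, had -0.51, -0.46 and -0.33 in ClpP cKO against 0.82, 0.96 and 1.01 in ClpX cKO.

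**Figure D5:**
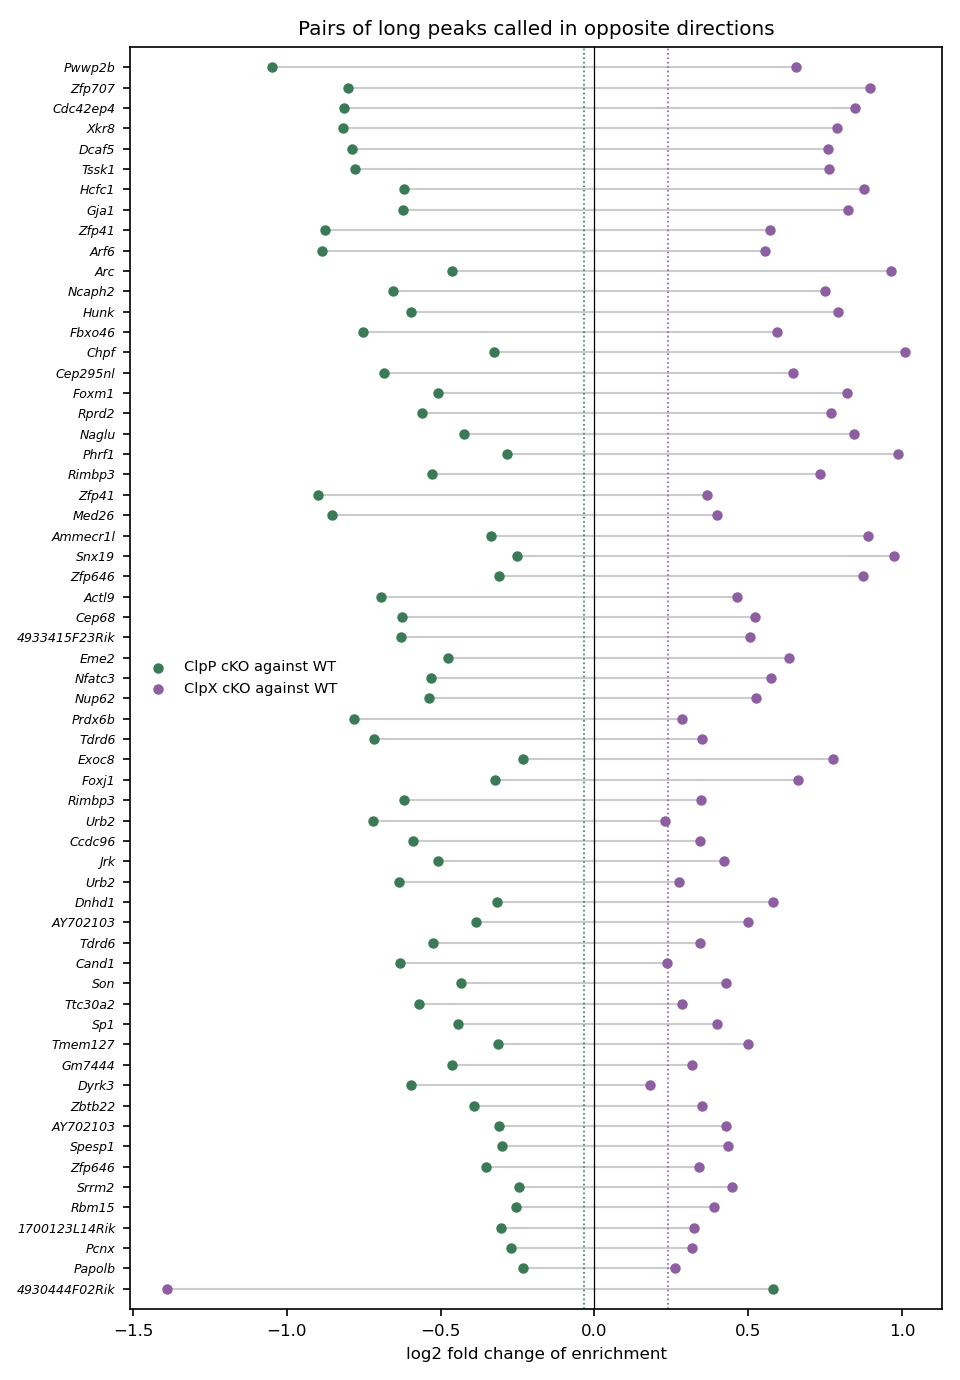
The 61 pairs of long peaks called in opposite directions, 1 line per pair, with the log2 fold change in ClpP cKO (green) and in ClpX cKO (purple); dotted lines are the medians of all peaks of each table. In 60 pairs the green point lies below 0 and the purple one above it, and 4930444F02Rik at the bottom is the reverse.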

How the data were processed

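The samples are m6A-seq libraries of male mouse germ cells, 1 IP and 1 input for each of 3 genotypes, grouped by their titles. The values are those of 2 tables of the authors' own comparisons, each resting on 4 libraries. Per the file headers, each row is a peak with its blocks and its p-value, log10 scores of raw and adjusted p-values (for the peak and for the difference), a fold enrichment, which is a linear ratio, and a log2 fold change. Genome builds GRCm38 and mm10 are named in the submitters' processing notes. Aligner, peak caller and scaling between libraries: not given in the sources used here. Depth per library is unknown.

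Members were rows with block count 1 and a block of at least 1000 bases. Python 3.11.15 with pandas 2.3.3, numpy 2.4.6, scipy 1.17.1 and matplotlib 3.10.9 was used, and the counting and pairing steps were tested on simulated tables. Peaks were paired as best mutual matches with at least 1 shared base on the same strand. The binomial intervals take each peak as independent, although a gene can hold several, and say nothing of variation among animals. Gene spans, start windows and miRNAs are RefSeq's, matched by symbol or position. No sequence from chromosome 18 is printed. The members and the 15 gene lists (with 1 list added after values were seen) were chosen with earlier results of these data known. Named genes followed a rule: per table the 8 longest members, the 8 of smallest adjusted p in each direction, the 4 most and 4 least enriched, up to 4 members of each list, the 4 just inside and 4 just outside the length limit, and members called in opposite directions, leaving out predicted names in the ranked groups except the longest. Other genes named (4932415D10Rik, D1Pas1, Haspin, Ddi1, the remaining members of the lists, genes with sequences, the predicted names with opposite calls) were chosen after their values were seen. Alternatives changed the length minimum, the block rule, the threshold, the centring, the peak filter, shared bases, mitochondrial peaks, the count per gene, the pairing overlap and the distance to the gene end.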

Additional observations from a re-analysis of the deposited data

Results flagged for a closer look

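Long peaks called in opposite directions by the authors' 2 tables were set apart for a closer look. Of the 607 pairs long in both tables, 60 (9.9%) had a lower call in ClpP cKO and a higher one in ClpX cKO. The reverse was called in 1 (0.16%). Of the 18278 other matched pairs, 700 (3.83%) had the first order and 7 (0.0383%) the reverse, so the imbalance ran through the tables and was not a trait of long peaks alone. Both comparisons use the same WT libraries and there is 1 library per group, so the differences between the knockouts were not tested. The values that follow are log2 fold changes in ClpX cKO minus those in ClpP cKO, from the authors' deposited tables.

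Among transcription and chromatin genes the difference was 1.71 for Pwwp2b, 1.70 for Zfp707, 1.5 for Hcfc1, 1.33 for Foxm1 and 1.33 for Rprd2. The peaks of Zfp41 had 1.45 and 1.26 and those of Zfp646 1.18 and 0.695. Med26, a Mediator subunit, had 1.25, Nfatc3 1.10, Foxj1, the ciliogenesis factor, 0.986, Jrk 0.932, Sp1 0.845 and Zbtb22 0.742. Phrf1 had 1.27 and the condensin II subunit Ncaph2 1.41.

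Germ cell genes were Tssk1 with 1.54, Rimbp3 with 1.26 and 0.965, Actl9 with 1.16, Prdx6b with 1.06, Tdrd6 with 1.06 and 0.869, Spesp1, a sperm equatorial segment protein, with 0.735, and Papolb with 0.493. On genes of RNA handling the values were 0.864 for Son, 0.694 for Srrm2, 0.643 for Rbm15 and 0.948 and 0.911 for Urb2, a ribosome biogenesis gene. Ubiquitin ligase genes were Dcaf5 with 1.55, Fbxo46 with 1.35 and Cand1 with 0.866. Centrosome and cilium genes were Cep295nl with 1.33, Cep68 with 1.15, Ccdc96 with 0.932, Dnhd1 with 0.896 and Ttc30a2, of intraflagellar transport, with 0.856.

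In membrane, trafficking and signalling genes the differences were 1.66 for Cdc42ep4, 1.61 for Xkr8, 1.45 for the gap junction gene Gja1, 1.44 for the small GTPase gene Arf6, 1.43 for Arc, 1.39 for the kinase gene Hunk, 1.23 for Snx19, 1.01 for the exocyst gene Exoc8, 0.814 for Tmem127, 0.777 for Dyrk3 and 0.587 for Pcnx. Chpf had 1.34, the lysosomal enzyme gene Naglu 1.27, Ammecr1l 1.23, the nuclease partner gene Eme2 1.11 and the nuclear pore gene Nup62 1.06. Less characterised genes were 4933415F23Rik with 1.14, AY702103 with 0.884 and 0.741, Gm7444 with 0.778 and 1700123L14Rik with 0.627. The reverse pair, 4930444F02Rik, had -1.97.

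Of the pairs long in 1 table only, 39 had opposite calls, 36 of them lower in ClpP cKO and higher in ClpX cKO. These pairs held 225 ClpP members with a single-block partner and 61 with a partner of more blocks. For ClpX members these were 157 and 107. The same order was called in 9.9% of pairs long in both tables. Among all other pairs, which include those long in 1 table, it was called in 3.83%. The lengths compared in pairs long in 1 table only are unequal, which bears on their values and was not tested. Zfp768 had the widest difference at 2.39, over 654 bases in the ClpP table and 1781 in the ClpX table. Germ cell genes were Actl11 with 1.73, Actl7a with 1.69, Aldoart2, a testis aldolase retrogene, with 1.61, Pom121l2 with 1.60, Tssk2 with 1.38, Akap3 with 1.05 and Pabpc6 with 0.96. Transcription and chromatin genes were Fbxl19 with 2.08, Ncoa5 with 1.39, Hdgfl1 with 1.37, Zfp438 with 1.35, Brpf3 with 1.29, Zbtb3 with 0.886 and Nfe2l1 with 0.793. Genes of RNA handling and translation were Ess2 with 1.4, the poly(A) polymerase gene Tent5c with 1.39, Smg8, of nonsense-mediated decay, with 1.31, and Eif4e2 with 1.16. Genes of ubiquitin and protein folding were Ubqln4 with 2.26, Fkbpl with 0.929, Wdr48 with 0.809 and the signalosome gene Cops8 with 0.722. The remaining values were 1.85 for Cables2, 1.85 for Mfsd5, 1.72 for Pi4k2a, 1.58 for Fam117b, 1.51 for the kinesin gene Kif3b, 1.44 for Suox, 1.29 for Gna12, 1.27 for Ccdc92, 1.09 for 1700017B05Rik, 1.08 for Rab11fip5, 1.04 for B3galnt1, 0.981 for Camsap1 and 0.944 for Cnnm4. Higher in ClpP cKO and lower in ClpX cKO were Ube3a with -1.41, Gm3555 with -1.61 and Fsip2 with -2.08.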

How the results depend on the processing

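Of 78 alternatives over 10 results, 60 changed little and 18 moved the value. Reversals were not scored as a class of their own, and those seen are named below. A minimum of 750 bases gave 28.6% called lower in ClpP cKO and 13.9% in ClpX cKO, with median fold enrichments of 17.6 and 18.3. A minimum of 1500 bases gave 10.1% called higher in ClpP cKO, 24.6% higher and 20.4% lower in ClpX cKO, and a median fold enrichment of 22.6 in the ClpP table. An adjusted p under 0.01 gave 3.33% higher and 26.5% lower in ClpP cKO and 16.2% higher and 11.3% lower in ClpX cKO. Asking also for a log2 change of 1 or more in size gave 2.44% higher and 5.65% lower in ClpP cKO. In ClpX cKO it gave 4.91% higher and 8.58% lower, so the order of the directions turned there. With the median of all peaks subtracted, the ClpX median of the members was -0.253. With 750 bases it was 0.00855, against -0.0144 as reported, so its sign turned. Ends within 500 bases of the gene's end made up 23.4% in place of 11.1% within 100. No paired analysis was possible because each genotype has 1 library of each kind; for the same reason no replicate could be left out. Library depth is unknown, so it cannot be said which differences were too small to call.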
